A study of Mus musculus with 35 samples.

Results

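Potassium channel genes were taken from RNA sequencing of mouse hippocampus by their symbols (Kcn, a subfamily letter code and a number), with a mean of at least 10 counts over the 19 m6A libraries. Of 92 such symbols among 32544 genes, 81 met this minimum. The lowest accepted was Kcnk5, with a mean of 10.4 counts, and the highest left out was Kcnq1, with 9.84. They comprise 27 voltage-gated subunits (Kcna, Kcnb, Kcnc, Kcnd, Kcnh, Kcnq), 9 modulatory subunits that do not conduct alone (Kcnf, Kcng, Kcns, Kcnv), 12 auxiliary subunits (Kcnab, Kcne, Kcnip, Kcnmb), 15 inward rectifiers (Kcnj), 10 two-pore-domain channels (Kcnk) and 8 calcium- or sodium-activated channels (Kcnma, Kcnn, Kcnt, Kcnu).

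IAKA mice received kainic acid, a glutamate receptor agonist, into the amygdala to trigger status epilepticus, followed by lorazepam, and PBS mice received the vehicle at the same site. All were young adult males of the C57BL/6JOlaHsd strain, and hippocampus was collected after 24 hours or 2 weeks. Total RNA gave 16 input libraries, and polyA RNA immunoprecipitated with an antibody against m6A (m6A IP) gave 19, each from 1 mouse. At 24 hours there were 5 IAKA and 3 PBS m6A IP libraries and 4 IAKA and 3 PBS input libraries, and at 2 weeks 6 and 5 m6A IP and 6 and 3 input libraries. In bulk hippocampus, fewer cells of a type and less RNA per cell cannot be told apart.

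Potassium channels set the resting potential of neurons, repolarise the action potential and limit repetitive firing. Voltage-gated subunits open upon depolarisation, inward rectifiers and two-pore-domain channels carry the resting and receptor-operated conductance, and glial inward rectifiers take up the potassium released during firing. Loss-of-function variants of several of these genes cause epilepsy in humans, and m6A is a methyl mark on adenosines of mRNA that influences its stability and translation.

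Counts per library ran from 1652933 to 34564536 in m6A IP. In input, 3 of 16 libraries, all at 24 hours, held under 100000 counts and were left out of the values below, which leaves PBS mouse 1 as the sole 24-hour input control against IAKA mice 8, 67 and 98. Column names place the libraries in sets: for m6A IP, sets 3, 4 and 5, and for input, columns named Input or without a prefix. Set 3 holds only IAKA mice, so a comparison of IAKA with PBS within a set was possible only in set 4 at 24 hours, in set 5 at 2 weeks and among input columns without a prefix. IAKA mouse 8 stood apart in both its libraries, where mitochondrial genes took 17.4% of input and 16.4% of m6A IP counts, against 1.62% to 2.74% in the other IAKA libraries of 24 hours used here. The m6A IP library of IAKA mouse 6 at 2 weeks had a like share, 17.5%. All 7 excitatory neuron markers checked for the labelled tissue were detected in each group.

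Levels are given as CPM, read counts scaled to a common library size after TMM normalization, which corrects for library size and composition but not for gene length. Per kilobase of the longest GENCODE coding transcript, the most abundant members in input of PBS mice were Kcnj3 (29.9 CPM per kb), a G protein-gated inward rectifier, and Kcnab2 (26.4), a beta subunit of Kcna channels. Kcna2 (23.8), an axonal voltage-gated subunit, came next. The least abundant was Kcnj1 at 0.0977 CPM per kb.

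The m6A IP libraries were set against input in the 4 PBS mice that had both. Of 77 members tested, Kcna4 and Kcnk1 alone (2.60%) were past the 0.05 threshold of the adjusted P, computed with the quasi-likelihood test of edgeR, against 2.06% of 15109 genes. With the added requirement of an absolute log2 ratio above 1, 0 members were called, against 1.16% of all genes. The median log2 ratio of the members was 0.017, beside -0.006 over all genes. At an unadjusted P under 0.05 there were 5 members higher in m6A IP (6.49%, against 9.19% of genes) and 6 lower (7.79%, against 8.78%). Because the IP came from polyA RNA and input from total RNA, the ratio holds RNA selection as well as methylation.

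Kcna4, an A-type voltage-gated subunit (chr2:107290589-107326804, mm10), stood in m6A IP at 115, 137, 120 and 112 CPM in PBS mice 1, 2, 3 and 4. In input the same mice had 63.6, 52.6, 51.5 and 59.4 CPM. The m6A IP values all lay above the input values, each scaled within its own assay. With both assays scaled together, the log2 ratio was 0.81 ± 0.12 (SE, n = 4 mice, edgeR adjusted P = 0.00957), and without the input library of PBS mouse 3 the adjusted P was 0.0553. Kcnk1, a weakly inward-rectifying two-pore-domain channel (chr8:125993655-126030685), had 66.2, 82.7, 72.7 and 75.1 CPM in m6A IP. Its input values were 43.1, 44.7, 33.9 and 39.6 CPM, again without overlap. The log2 ratio was 0.59 ± 0.13 (SE, n = 4 mice, edgeR adjusted P = 0.0496). With the mouse as a block the adjusted P was 0.0751, and it lay between 0.0700 and 0.190 in 6 of the 8 fits that left out 1 library (input of PBS mouse 2, 3 or 4, or m6A IP of PBS mouse 1, 2 or 3).

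METTL3, the m6A methyltransferase, prefers adenosines in a short context of which GGACT is a typical form, so the coding matches to these letters in Kcna4 and Kcnk1 show where such a context lies in the only members past the adjusted threshold. Only the sense strand of the longest coding transcript (GENCODE vM39) was searched, and the matches do not overlap. Capitals mark the 5 letters searched.
Kcna4, transcript position 1898: cctgagaagaGGACTcagtacttcg
Kcnk1, transcript position 662: attggaattgGGACTtcacctcggc
Kcnk1, transcript position 1043: tcggcctgggGGACTatgttccagg
Kcnk1, transcript position 1120: cctgctcctcGGACTcatcgccatg
Each transcript held 5 matches in all, which is 1.03 per kb for Kcna4 and 2.16 per kb for Kcnk1. The median was 0.992 per kb over the 77 members tested and 1.03 over the 13246 tested genes with a coding transcript, and 96.1% of the former and 95.9% of the latter held at least 1 match. Matches outside the coding sequence are counted but not printed. Over the 77 members tested, matches per kb and the log2 ratio of m6A IP to input had a Spearman correlation of -0.089. A match to these letters is a description and not a measured methylation site.

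**Figure D1:**
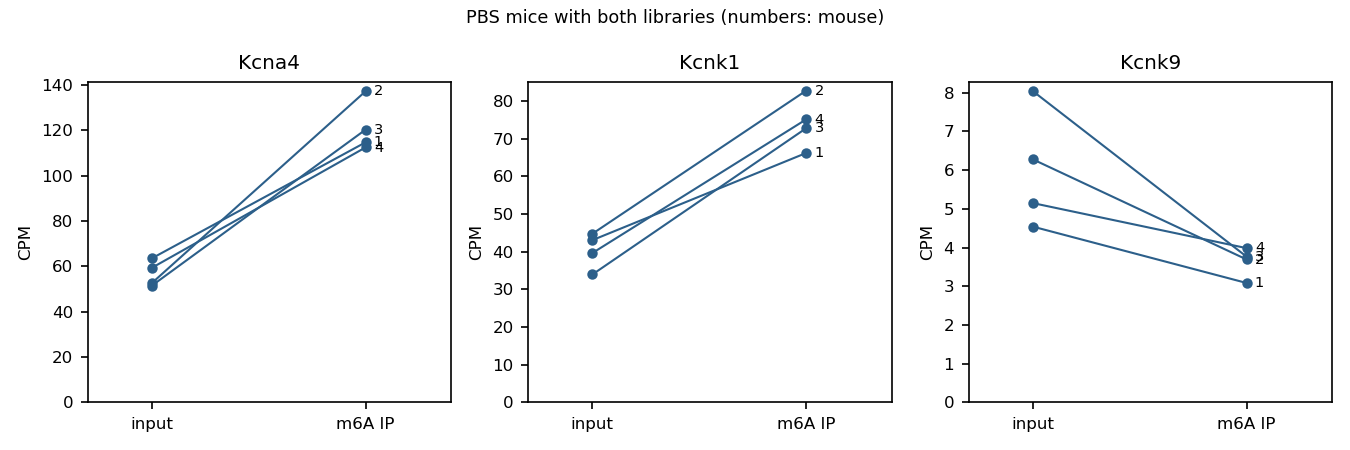
CPM in input and m6A IP libraries (y axis, linear from 0) of Kcna4, Kcnk1 and Kcnk9 in PBS mice 1 to 4, with a line joining the libraries of each mouse. The CPM were scaled within each assay. Kcna4 and Kcnk1 are higher in m6A IP in each mouse, and Kcnk9 is lower in each mouse.

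Kcnk9, a pH-sensitive two-pore-domain channel, had a log2 ratio of -0.98 ± 0.26 (SE, edgeR adjusted P = 0.0850). Kcnk9 had 3.08, 3.69, 3.77 and 3.98 CPM in m6A IP of mice 1 to 4 and 4.54, 6.28, 8.04 and 5.15 CPM in input. It was the only member with all input values above the m6A IP values (1.30%, against 1.98% of genes), whereas 12 members had all m6A IP values above (15.6%, against 19.3%). These CPM were scaled within each assay, so the counts without overlap also depend on that scaling. In the edgeR fit with both assays scaled together, 9.19% of genes were higher and 8.78% lower in m6A IP at an unadjusted P under 0.05. DESeq2 put Kcna4, Kcnk1 and Kcnk9, among others, past an adjusted P of 0.05, and the share of all genes past it is not given here. With the added requirement of an absolute log2 ratio above 1, DESeq2 called 0 of 77 members, against 2.13% of genes. By role, 10 of 14 inward rectifiers and 14 of 26 voltage-gated subunits had a ratio above 0, but only 1 of 8 calcium- or sodium-activated channels. Of 31 partner and potassium handling genes tested, 20 had a ratio above 0 (49.5% of all genes), with a median of 0.12, and at an unadjusted P under 0.05 there were 3 with higher and 4 with lower levels in m6A IP (9.19% and 8.78% of genes). The only one past the adjusted threshold (2.06% of genes), which encodes the axonal protein Cntnap1, had a log2 ratio of -0.72 ± 0.16 (SE, edgeR adjusted P = 0.0459).

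IAKA was then compared with PBS in m6A IP at 24 hours. Of 81 members, 0 passed an adjusted P of 0.05 (edgeR), against 0.00607% of 16470 genes (1 gene). An unadjusted P under 0.05 was reached by 5 members (6.17%), against 5.31% of all genes: 2 were higher in IAKA mice (2.47%, against 4.01%) and 3 lower (3.70%, against 1.29%). The log2 fold change of IAKA over PBS was above 0 for 31 members (38.3%), against 58.0% of all genes, and the median was -0.12 beside 0.083. By role, 9 of 27 voltage-gated subunits, 3 of 9 modulatory, 4 of 12 auxiliary, 8 of 15 inward rectifier, 5 of 10 two-pore-domain and 2 of 8 calcium- or sodium-activated members lay above 0. The member median moved to 0.055 without PBS mouse 73, a fit whose median over all genes is not given here. With the library set as a block, 26 of 81 members lay above 0 (median -0.256). Only set 4 holds both treatments at this time, so that fit takes the IAKA difference from the same libraries as set 4 alone. The fit of set 4 alone, with 2 IAKA and 2 PBS mice, is therefore not a separate result. It had 26 of 81 members above 0 (median -0.261). Shares over all genes are not given here for these fits.

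The smallest unadjusted P belonged to Kcnip2, a calcium sensor that binds Kcnd channels and shapes the A-type current (chr19:45792346-45816422). PBS mice 1, 71 and 73 had 23.6, 44.6 and 36.7 CPM in m6A IP, and IAKA mice 8, 67, 79, 97 and 98 had 5.19, 17.3, 10.5, 13.1 and 23.3 CPM. The groups did not overlap, but IAKA mouse 98 lay close to PBS mouse 1. On the log2 scale the difference was -1.36 ± 0.41 (SE, n = 5 and 3, edgeR adjusted P = 0.560). Within set 4, which holds IAKA mice 79 and 97 and PBS mice 71 and 73, it was -1.79 (edgeR adjusted P = 0.0125). In input at 24 hours IAKA mice 67 and 98, at 23.4 and 26.0 CPM, lay on both sides of the 25.4 CPM of PBS mouse 1, and IAKA mouse 8 was at 6.43.

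Kcnk13, a two-pore-domain channel prominent in microglia (chr12:99963149-100062682), had 2.79, 4.30 and 5.92 CPM in m6A IP of PBS mice 1, 71 and 73. In IAKA mice 8, 67, 79, 97 and 98 it had 6.72, 8.88, 13.6, 17.0 and 4.78 CPM, of which 4 exceeded each PBS value. The fitted log2 difference was 1.30 ± 0.45 (SE, edgeR adjusted P = 0.676), and within set 4 it was 1.6 (edgeR adjusted P = 0.0275). The summed level of the 8 microglia markers, all detected, ran from 179 to 258 CPM in PBS and from 198 to 344 CPM in IAKA mice, and its part in this difference was not tested.

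Kcnc2, a voltage-gated subunit of fast-spiking interneurons (chr10:112269898-112466304), had 52.2, 51.0 and 44.3 CPM in PBS mice and 36.3, 29.7, 28.4, 32.9 and 30.5 CPM in IAKA mice. All 5 IAKA libraries lay below the 3 PBS libraries. This gave a log2 difference of -0.59 ± 0.23 (SE, edgeR adjusted P = 0.815), with -0.63 within set 4 (edgeR adjusted P = 0.0963). Kcnq5, a subunit of the M-current that restrains repetitive firing, had 82.2, 160 and 116 CPM in PBS and 66.6, 40.8, 78.9, 66.3 and 95.7 CPM in IAKA mice, where only mouse 98 overlapped the PBS values. Between groups the log2 difference was -0.74 ± 0.32 (SE, edgeR adjusted P = 0.892).

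Libraries of IAKA and PBS mice did not overlap at 24 hours in m6A IP for 5 members. IAKA was below for Kcnip2, Kcnc2, Kcnn2 and Kcnq3 (4.94%, against 2.13% of all genes) and above for Kcnk6 (1.23%, against 2.54%). Within set 4, with 2 IAKA and 2 PBS mice, IAKA was below for 36 of 81 members (44.4%, against 25.1% of genes) and above for 15 (18.5%, against 26.5%). Kcnn2, a calcium-activated channel of the afterhyperpolarisation, had 53.4, 63.3 and 65.4 CPM in PBS and 38.0, 35.1, 49.5, 48.9 and 35.9 CPM in IAKA mice. Within set 4 alone, edgeR called 3 of 81 members (3.70%), against 2.11% of 16903 genes. Kcnip2 and Kcnk13 were among them. Voom with sample quality weights called 11 members over all 8 libraries (13.6%, against 6.80% of genes). Kcna5, Kcnf1, Kcnip3, Kcnk10 and Kcnk13 were higher in IAKA mice, and among the lower members were Kcnc2, Kcnip2, Kcnj14, Kcnk4 and Kcnq5.

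**Figure D2:**
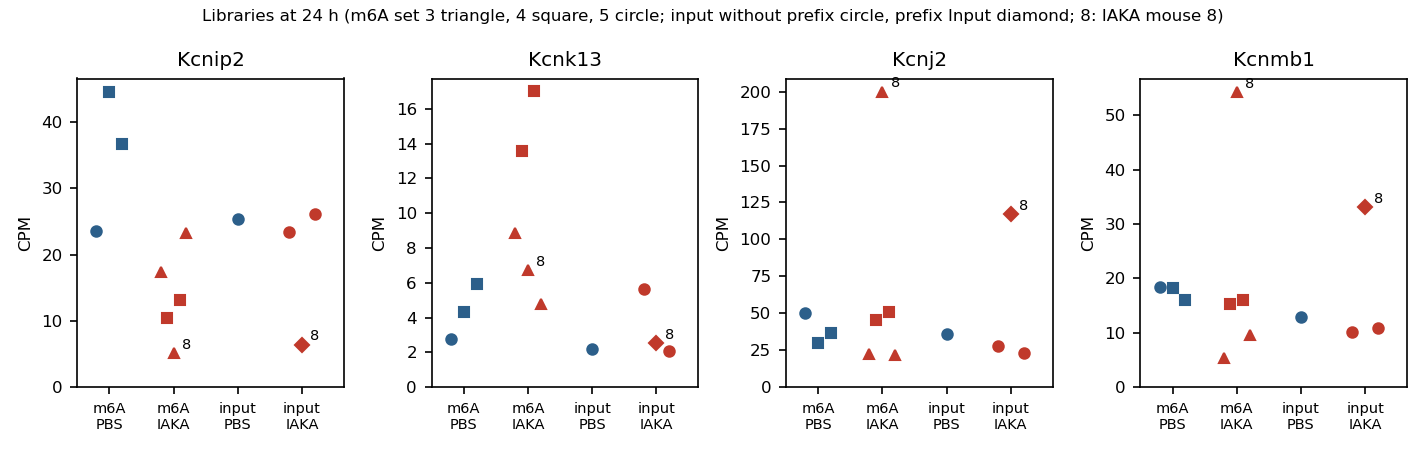
CPM (y axis, linear from 0) of Kcnip2, Kcnk13, Kcnj2 and Kcnmb1 in m6A IP and input libraries at 24 hours, 1 point per mouse, with marker shape giving the library set and 8 marking IAKA mouse 8. Kcnip2 in m6A IP is lower in all 5 IAKA mice than in the 3 PBS mice, and Kcnj2 and Kcnmb1 are highest in both libraries of IAKA mouse 8.

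IAKA mouse 8 decided the spread of several members at 24 hours. Kcnj2, a strong inward rectifier, reached 199.998 CPM in its m6A IP and 117 CPM in its input library, against 22.1 to 50.6 CPM in m6A IP of the other 4 IAKA mice. Kcnj15, another inward rectifier, was at 47.2 and 37.4 CPM there, and 2.22 to 7.36 CPM in m6A IP of the others. Kcnmb1, a beta subunit of calcium-activated channels known from smooth muscle, was at 54.3 and 33.1 CPM, and 5.33 to 16.03 CPM in m6A IP of the others. The calcium-activated channel Kcnn4 reached 5.45 CPM in m6A IP, against 0.444 to 1.196 CPM. By contrast, Kcnip2 and Kcnab2 (37.4 CPM in m6A IP, against 108 to 213 CPM) were lowest in this mouse. The summed level of the 7 pericyte and smooth muscle markers in its libraries was 49.7 CPM in m6A IP and 50.1 CPM in input, the lowest of the IAKA libraries at 24 hours, and those of the 7 astrocyte markers, at 1208 and 963 CPM, and the 7 excitatory neuron markers, at 982 and 941 CPM, were also the lowest. The 5 blood markers summed to 31.1 CPM in m6A IP and 44.1 CPM in input, the highest of these libraries (6.43 to 14.9 and 11.9 to 18.7 CPM in the others). The 7 endothelial markers were highest in input, at 1386 CPM against 473 and 922 CPM, and lowest in m6A IP, at 349 CPM, with 392.2 to 499 CPM in the others. The part of these markers in the values was not tested. Kcnj2, Kcnj15, Kcnmb1 and Kcnn4 were singled out after their values were seen. Without this mouse 0 members passed in m6A IP or input, while the count over all genes went from 1 to 45 in m6A IP and from 0 to 180 in input.

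At 2 weeks in m6A IP, 0 of 78 members passed (edgeR), as did 0 of 16157 genes (0.0%). At an unadjusted P under 0.05 there were 8 members (10.3%), against 5.01% of all genes, of which 1 was higher in IAKA mice (1.28%, against 2.85%) and 7 lower (8.97%, against 2.16%). The log2 fold change was above 0 for 18 members (23.1%), against 49.8% of all genes, with a median of -0.19 beside -0.001. Of the 27 voltage-gated subunits 25 lay below 0, with a median of -0.31 and 7 of 11 auxiliary subunits lay above 0, with a median of 0.15. The member counts were closer to even within library sets, in fits whose shares over all genes are not given here. With the set as a block 35 of 78 members lay above 0 (median -0.074) and 17 of 27 voltage-gated subunits below, with 5 of 11 auxiliary subunits above (median -0.10). Only set 5 holds both treatments at this time, so the block fit takes the IAKA difference from that set. The fit of set 5 alone, with 3 IAKA and 3 PBS mice, is therefore not a separate result. It had 36 of 78 members above 0 (median -0.055) and 5 of 11 auxiliary subunits (median -0.088). No member had libraries without overlap between the 5 PBS and 6 IAKA mice, against 0.446% of genes above and 0.149% below. Within set 5, 4 members were above without overlap (5.13%, against 5.3% of genes) and 9 below (11.5%, against 4.76%). The direction of Kcnk13 differed, at -0.19 over all libraries and 0.87 within set 5.

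The 4 members with the smallest P in m6A IP at 2 weeks were Kcng4, Kcnab3, Kcnq5 and Kcnj11. Kcng4, a modulatory subunit, had 1.77, 1.55, 2.30, 4.28 and 3.05 CPM in PBS mice 2, 3, 4, 50 and 78 and 0.753 to 1.73 CPM (median 1.27) in 6 IAKA mice. On the log2 scale the difference was -1.05 ± 0.35 (SE, edgeR adjusted P = 0.875) and -0.52 within set 5. Kcnab3, a beta subunit of Kcna channels, had 18.6, 15.3, 23.6, 11.5 and 10.2 CPM in PBS and 6.68 to 13.3 CPM (median 8.40) in IAKA mice. The fitted log2 difference was -0.73 ± 0.27 (SE, edgeR adjusted P = 0.875) and -0.94 within set 5 (edgeR adjusted P = 0.956), where PBS mice 2, 3 and 4 stood above the 3 IAKA mice at 13.3, 7.79 and 8.67 CPM.

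Kcnq5 had 85.5, 66.9, 61.3, 130 and 120 CPM in PBS and 45.8 to 75.7 CPM (median 65.3) in IAKA mice at 2 weeks, so only PBS mice 2, 50 and 78 lay above the IAKA range. Its log2 difference of -0.59 ± 0.23 (SE, edgeR adjusted P = 0.875) was -0.18 within set 5. Kcnj11, the pore of an ATP-sensitive channel, had 6.74, 5.32, 11.3, 14.4 and 12.2 CPM in PBS and 4.66 to 7.86 CPM (median 6.39) in IAKA mice, a log2 difference of -0.67 ± 0.27 (SE, edgeR adjusted P = 0.875) and -0.27 within set 5. DESeq2 and voom called 0 members here, out of 15 and 2 genes.

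**Figure D3:**
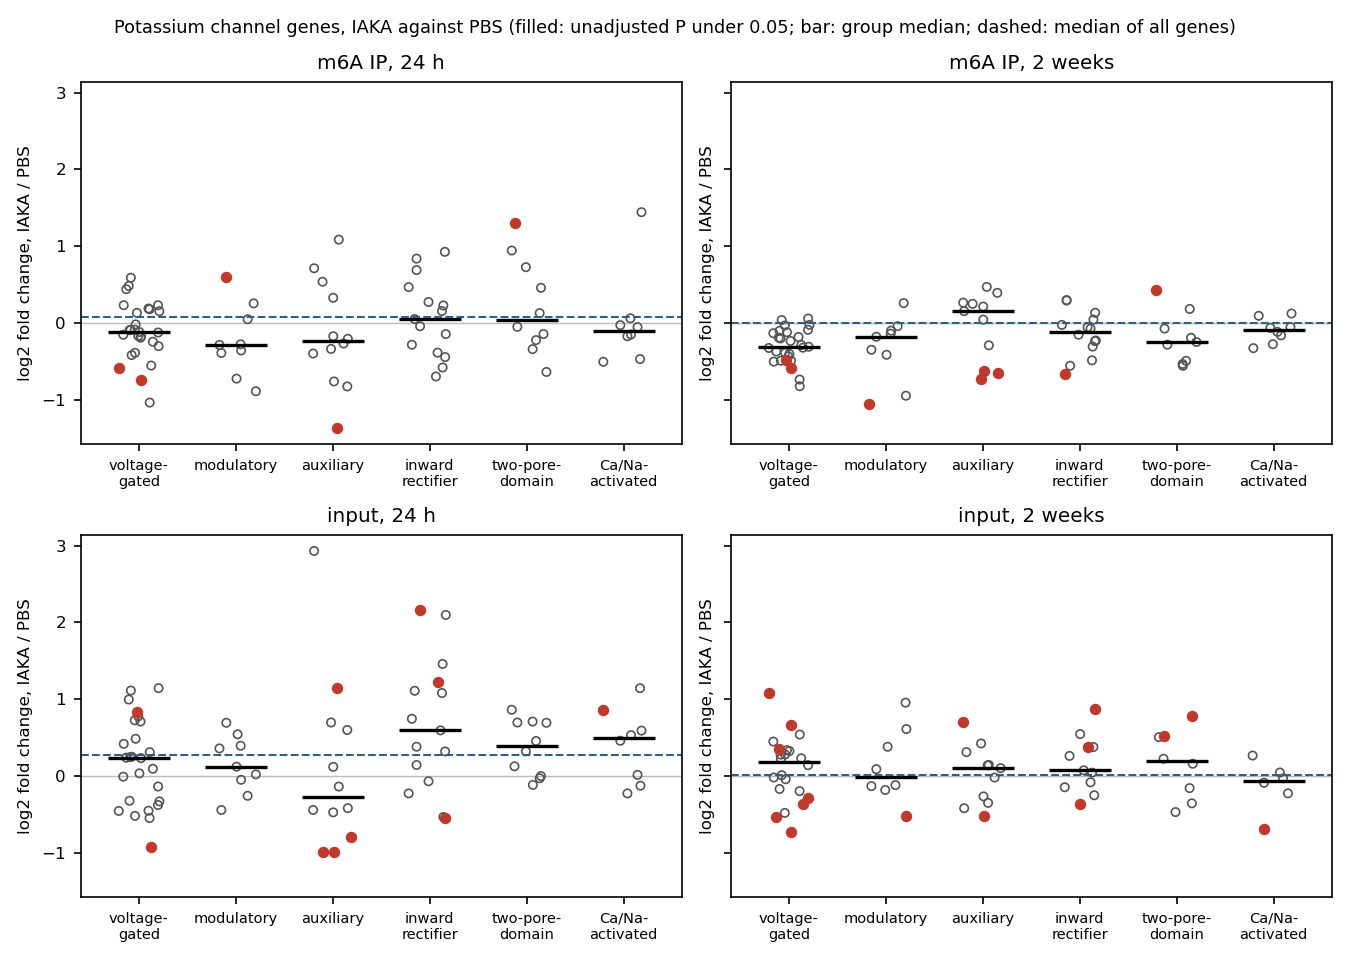
Log2 fold change of IAKA over PBS (y axis) for each member tested, grouped by role (x axis), in 4 panels for m6A IP and input at 24 hours and 2 weeks. Filled points have an unadjusted P under 0.05 (edgeR), bars are medians of a role and the dashed line is the median of all genes. In m6A IP at 2 weeks 25 of 27 voltage-gated subunits lie below 0 in the fit shown. With the library set as a block, which is not drawn, 17 of 27 do.

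Library sets separated many members in PBS mice alone. Between the 4 PBS libraries of set 4 and the 4 of set 5, which each span both times, 27 of 81 members were higher in set 4 without overlap (33.3%, against 19% of 17440 genes) and 9 were lower without overlap (11.1%, against 19.3%). The modulatory subunit Kcng2 was at 12.1 to 19.2 CPM in set 4 and 2.75 to 5.73 CPM in set 5. Kcnj10, the main inward rectifier of astrocytes, was at 107 to 183 and 54.8 to 68.7 CPM. The sodium-activated channel Kcnt2 went the other way, with 20.7 to 24.7 CPM in set 4 and 53.5 to 65.9 CPM in set 5. The summed level of the 7 excitatory neuron markers also differed, from 4908 to 5346 CPM in set 4 and from 1736 to 2320 CPM in set 5, and its part in these values was not tested. In the 24-hour group 2 of 3 PBS libraries are of set 4, and in the 2-week group 2 of 5.

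**Figure D4:**
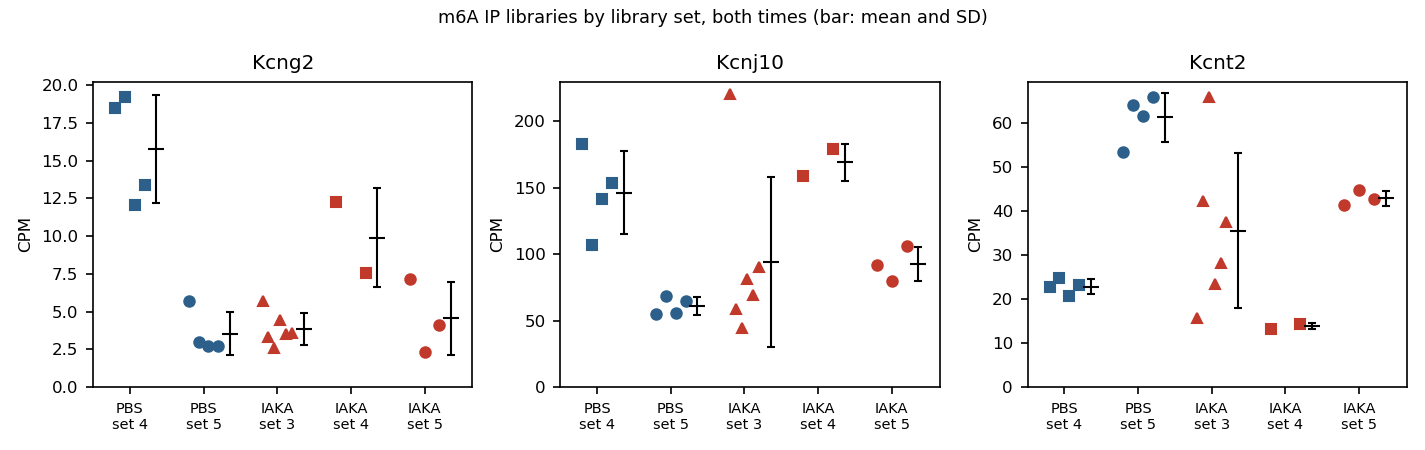
CPM in the 19 m6A IP libraries (y axis, linear from 0) of Kcng2, Kcnj10 and Kcnt2 by treatment and library set, both times together, with the mean and SD beside the points. In PBS mice, Kcng2 lies between 12.1 and 19.2 CPM in set 4 and between 2.75 and 5.73 CPM in set 5.

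The input libraries give the RNA level before immunoprecipitation. At 24 hours 0 of 80 members passed (edgeR, contrast within a fit of all 13 deep input libraries), as did 0 of 17644 genes (0.0%), and 10 members (12.5%) against 9.23% of genes had an unadjusted P under 0.05, 5 in each direction (6.25%, against 4.99% of genes higher and 4.24% lower). With 1 control library, its spread was assumed to equal that of the other groups. The median log2 fold change was 0.25 beside 0.27 over all genes. Scaled by library size alone it was -0.041 beside -0.040, so only differences from the median of all genes can be read here.

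Kcnip4, a calcium-sensing subunit of Kcnd channels (chr5:48389503-49525122), had 48.2 CPM in PBS mouse 1 and 21.6, 27.8 and 20.4 CPM in IAKA mice 8, 67 and 98. This gave a log2 difference of -0.98 ± 0.26 (SE, edgeR adjusted P = 0.315). Kcnd2 itself, the dendritic A-type subunit (chr6:21215346-21729805), had 126 CPM in the PBS mouse and 52.5, 82.4 and 55.4 CPM in the IAKA mice, with -0.92 ± 0.26 (SE, edgeR adjusted P = 0.324). All 3 IAKA mice lay below the control for both. The PBS input libraries of 2 weeks were also below this control for Kcnip4, though above the 3 IAKA mice. For Kcnd2 they had a lower mean than the control. DESeq2 called both, with adjusted P of 0.0310 for Kcnip4 and 0.0434 for Kcnd2, which is 2 of 80 members (2.50%) against 1.12% of genes.

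Kcnn3, a calcium-activated channel, had 12.4 CPM in PBS mouse 1 and 18.4, 23.8 and 22.7 CPM in IAKA mice 8, 67 and 98 (log2 fold change 0.86 ± 0.26, SE, edgeR adjusted P = 0.370). The PBS mice of 2 weeks, however, had 21.1, 26.2 and 23.7 CPM, as high as the IAKA mice. Kcnab1, a beta subunit that lends inactivation to Kcna channels, had 86.2 CPM in the control and 51.6, 54.4 and 35.1 CPM in the IAKA mice (-0.80 ± 0.27, SE, edgeR adjusted P = 0.396). Voom called 7 members in input at 24 hours (8.75%, against 6.10% of genes), among them Kcnip3 and Kcnn3, which were higher, and Kcnab1, Kcnab3, Kcnd2 and Kcnip4, which were lower. In input of PBS mice 2, 3 and 4 at 2 weeks Kcnab1 had 68.6, 64.9 and 59.5 CPM, below PBS mouse 1 and above the IAKA mice of 24 hours. With a single control, 18.8% of members and 18.1% of genes had all IAKA values above it, and 22.5% and 22.1% had all below.

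In m6A IP at 24 hours Kcnd2 had 144, 152 and 151 CPM in PBS mice 1, 71 and 73 and 67.2, 77.2, 148, 125 and 78.9 CPM in IAKA mice 8, 67, 79, 97 and 98. Its log2 fold change there was -0.55 (edgeR adjusted P = 0.982), and the 3 IAKA mice with deep input libraries were the 3 lowest. Those 3 are also the IAKA mice of set 3, which holds no PBS mouse. In set 4, IAKA mice 79 and 97 had 148 and 125 CPM of Kcnd2, beside 152 and 151 CPM in PBS mice 71 and 73. Library set and treatment cannot be told apart for the 3 lowest. Kcnip4 had 52.9, 21.8 and 20.7 CPM in PBS and 19.5, 19.97, 10.8, 14.1 and 23.9 CPM in IAKA mice.

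At 2 weeks in input, where 6 IAKA and 3 PBS libraries were all deep, 0 of 66 members passed (edgeR), as did 0 of 13752 genes (0.0%). An unadjusted P under 0.05 was reached by 16 members (24.2%), against 14.1% of all genes. Of these, 8 were higher in IAKA mice (12.1%, against 8.41% of genes) and 8 lower (12.1%, against 5.69%). The median log2 fold change was 0.082 beside 0.017 over all genes. It was above 0 for 37 members (56.1%, against 52.4% of genes), among them 13 of 22 voltage-gated and 7 of 11 inward rectifier members. Libraries did not overlap for 9 members: IAKA was above for 3, Kcnj6 among them (4.55%, against 3.72% of genes), and below for Kcna2, Kcnc2, Kcnh7, Kcnip4, Kcnt2 and Kcnv1 (9.09%, against 3.64%).

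Kcnc2 had 63.2, 58.7 and 72.4 CPM in input of PBS mice 2, 3 and 4 and 29.7 to 48.4 CPM (median 39.9) in the 6 IAKA mice. The mean was 64.7 CPM in PBS and 39.0 ± 6.93 CPM (SD, n = 6) in IAKA mice, and the groups did not overlap. Between groups the log2 difference was -0.73 ± 0.15 (SE, edgeR adjusted P = 0.202), with -0.89 among columns without a prefix (3 IAKA and 3 PBS mice, adjusted P = 0.163, edgeR).

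Kcnt2, a sodium-activated channel (chr1:140245657-140614045), had 58.1, 62.8 and 64.5 CPM in PBS mice and 27.7 to 50.2 CPM (median 39.0) in IAKA mice. The fitted log2 difference was -0.69 ± 0.17 (SE, edgeR adjusted P = 0.242) and -0.76 among columns without a prefix. DESeq2 and voom each called 3 members, Kcnc2 and Kcnt2 among them (4.55% of members, against 0.844% of genes for DESeq2 and 2.49% for voom). The adjusted P of Kcnc2 was 0.00966 in DESeq2 and 0.0272 in voom, and that of Kcnt2 was 0.0303 and 0.0283.

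Kcnip4 had a lower mean in input of IAKA mice at 2 weeks as well, with 34.0, 36.02 and 36.4 CPM in PBS and 17.9 to 30.2 CPM (median 25.4) in IAKA mice. This gave a log2 difference of -0.52 ± 0.16 (SE, edgeR adjusted P = 0.266). In m6A IP at 2 weeks the same member had 31.2, 31.4, 24.4, 19.1 and 19.8 CPM in PBS and 16.1 to 54.2 CPM (median 27.9) in IAKA mice, so those groups overlapped.

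**Figure D5:**
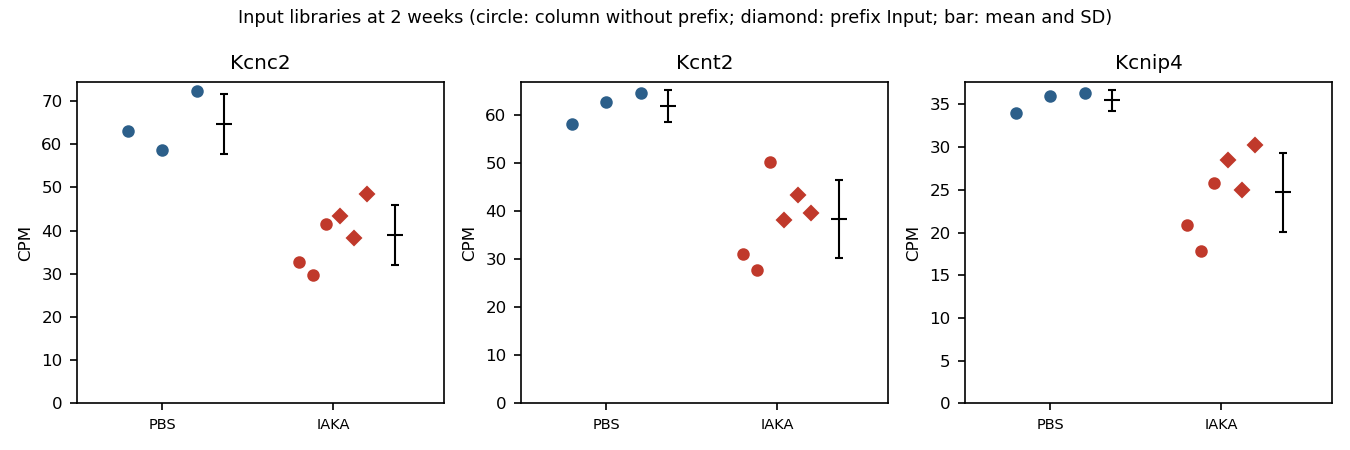
CPM in input libraries at 2 weeks (y axis, linear from 0) of Kcnc2, Kcnt2 and Kcnip4 in PBS mice 2, 3 and 4 and in 6 IAKA mice, with the mean and SD beside the points. Circles are columns without a prefix and diamonds columns named Input; the groups do not overlap in any of the 3 panels.

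Summed marker levels were compared between the same input groups at 2 weeks. All 7 astrocyte markers were detected, at 2131 to 3893 CPM in PBS and 3096 to 7502 CPM in IAKA mice. The 8 microglia markers were at 110 to 145 and 141 to 325 CPM, the 7 excitatory neuron markers at 1251 to 2090 and 1459 to 3458 CPM, and the 8 inhibitory neuron markers at 319 to 374 and 326 to 507 CPM. The groups overlapped for each of these 4 lists. They did not overlap for the 7 pericyte and smooth muscle markers, at 106 to 119 CPM in PBS and 124 to 184 CPM in IAKA mice. None of the 5 lists held a gene past the adjusted threshold. Their part in the members' values was not tested.

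Other voltage-gated members that were described whatever their test result showed smaller differences, and each had an adjusted P above 0.3 in all 4 comparisons (edgeR). Kcna1, an axonal subunit whose loss causes seizures in mice, had a log2 fold change of -0.12 and -0.40 in m6A IP at 24 hours and 2 weeks and of 0.03 and 0.32 in input. Kcna2 had -0.12, 0.06, -0.14 and -0.29 in the same order, and in input at 2 weeks all IAKA mice (219 to 289 CPM, median 261) lay below PBS mice 2, 3 and 4 (325, 298 and 322 CPM). Kcnc1, of fast-spiking cells, had -0.18, -0.49, 0.23 and 0.28. In m6A IP of PBS mice Kcna1 was at 149 to 186 CPM in set 4 and 75.2 to 107 CPM in set 5. For Kcnc1 these ranges were 109 to 139 and 63.7 to 69.1 CPM. At 2 weeks set 4 holds only PBS mice, so set and treatment are mixed in the m6A IP values of that time.

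The M-current subunit Kcnq3 had log2 fold changes of -0.30, -0.31, -0.33 and -0.20. Kcnab2 had -0.76, -0.63, -0.44 and 0.31. Its m6A IP values at 24 hours were 179, 266 and 303 CPM in PBS and 37.4, 213, 108, 172 and 201 CPM in IAKA mice 8, 67, 79, 97 and 98. In m6A IP of PBS mice Kcnab2 was at 266 to 303 CPM in set 4 and 133 to 179 CPM in set 5. Within set 5 at 2 weeks, PBS mice 2, 3 and 4 had 133, 139 and 168 CPM. IAKA mice 7, 9 and 21 of that set had 93.6, 108 and 191 CPM.

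Among inward rectifiers, Kcnj10 had 54.3, 39.3 and 48.0 CPM in input of PBS mice at 2 weeks and 47.0 to 164 CPM (median 74.2) in IAKA mice. Between groups the log2 difference was 0.87 ± 0.33 (SE, edgeR adjusted P = 0.297), and the highest value was that of IAKA mouse 42, which also had the highest astrocyte marker sum (7502 CPM). In m6A IP its log2 fold change was 0.23 at 24 hours and -0.07 at 2 weeks. Its glial partner Kcnj16 had -0.37 ± 0.17 (SE, edgeR adjusted P = 0.348) in input at 2 weeks, with 22.7, 22.03 and 19.6 CPM in PBS and 13.1 to 20.3 CPM (median 16.9) in IAKA mice. Kcnj3 and Kcnj6, which form G protein-gated channels, had -0.44 and -0.04 in m6A IP at 24 hours and -0.15 and 0.37 in input at 2 weeks.

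Kcnj8, a pericyte ATP-sensitive channel, was at 0.856 to 3.28 CPM in m6A IP of IAKA mice at 2 weeks (median 1.84), beside 117 to 251 CPM summed over the 7 pericyte and smooth muscle markers. Kcnj13 and Kcne2, both abundant in choroid plexus, ranged in m6A IP of PBS mice from 0.683 to 9.33 CPM and from 0.305 to 20.5 CPM. The highest of each was in PBS mouse 50 and the lowest in PBS mice 73 and 71, where the 10 choroid plexus markers, all detected, summed to 1626, 109 and 72.2 CPM. The highest marker sum was that of PBS mouse 2, 2224 CPM, where Kcnj13 was at 8.09 and Kcne2 at 12.9 CPM. How much of this tissue a sample held was not tested as a cause.

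Kcnk1 had a higher mean in IAKA than in PBS mice at 2 weeks in both assays and did not pass the test in either. In m6A IP it had 82.7, 72.7, 75.1, 85.6 and 64.4 CPM in PBS mice 2, 3, 4, 50 and 78 and 80.1 to 156 CPM (median 90.7) in IAKA mice (log2 fold change 0.43 ± 0.20, SE, edgeR adjusted P = 0.875). In input it had 44.7, 33.9 and 39.6 CPM in PBS and 42.3 to 69.6 CPM (median 58.6) in IAKA mice (0.52 ± 0.17, SE, edgeR adjusted P = 0.267). The calcium-activated channel Kcnma1 had log2 fold changes of -0.03, 0.09, -0.13 and -0.09 in m6A IP and input at 24 hours and 2 weeks, and the sodium-activated Kcnt1 -0.05, -0.33, 0.59 and -0.23.

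The change of the IAKA effect between 24 hours and 2 weeks was tested as an interaction over the 19 m6A IP libraries. Of 81 members 0 passed (edgeR), against 0.00573% of 17440 genes, and 6 members (7.41%) against 2.45% of genes had an unadjusted P under 0.05, 2 higher (2.47%, against 0.636%) and 4 lower (4.94%, against 1.82%). The smallest was that of Kcnf1, a modulatory subunit. It had 27.3, 33.0 and 48.6 CPM in PBS and 41.6, 50.6, 62.3, 52.3 and 61.0 CPM in IAKA mice at 24 hours, whereas at 2 weeks PBS mice 2, 3, 4, 50 and 78 had 47.7, 42.8, 56.4, 34.3 and 35.1 CPM and 6 IAKA mice 29.3 to 50.2 CPM (median 36.6). The change in log2 fold change was -0.77 ± 0.32 (SE, edgeR adjusted P = 1.00).

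The change of the ratio of m6A IP to input by IAKA was tested at 2 weeks. Of 78 members 0 passed (edgeR), as did 0 of 16141 genes (0.0%), and 8 members (10.3%) against 4.06% of genes had an unadjusted P under 0.05, 1 higher (1.28%, against 1.71%) and 7 lower (8.97%, against 2.35%). The median was -0.27 beside -0.037 over all genes, but -0.080 over only the mice with both libraries and -0.11 with the mouse as a block. Medians over all genes are not given here for those alternative fits. Kcnc1, described whatever its test result and not the member with the smallest P, had a change of -0.78 ± 0.31 (SE, edgeR adjusted P = 0.807). In m6A IP of PBS mice Kcnc1 was at 109 to 139 CPM in set 4 and 63.7 to 69.1 CPM in set 5, without overlap. The PBS mice without an input library here, 50 and 78, are those of set 4. No IAKA library of 2 weeks is of set 4.

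Channel partners and potassium handling genes, a list of 35 (among them Dpp6 and Dpp10, Abcc8, Lgi1, Cntnap2 and Ank3), held 0 genes past the adjusted threshold in the 4 comparisons of IAKA with PBS. In m6A IP, 11 of 33 tested lay above 0 at 24 hours (58.0% of all genes) and 9 of 33 at 2 weeks (49.8% of genes), with medians of -0.13 and -0.097. In input, 16 of 33 lay above 0 at 24 hours (66.0% of genes) and 22 of 31 at 2 weeks (52.4% of genes), with medians of -0.082 and 0.12. At an unadjusted P under 0.05 the list held in m6A IP 1 higher and 2 lower at 24 hours (4.01% and 1.29% of genes) and 1 higher and 0 lower at 2 weeks (2.85% and 2.16%). Input held 2 higher and 7 lower at 24 hours (4.99% and 4.24% of genes) and 5 higher and 4 lower at 2 weeks (8.41% and 5.69%).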

How the data were processed

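The authors deposited whole-number counts of reads per gene symbol and sequencing lane (build mm10, per the labels), without normalization. Which aligner and counter produced them, and whether strand was used, is not given in the sources used here. The 4 lanes of a library were summed. 8 columns with no sample in the labels were not used. The assay stood in the column names of 8 libraries and was inferred from the column prefix for 27. Members, gene lists and tests were chosen with earlier results of these data known.

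All genes were fitted with edgeR 4.0.16 (R 4.3.3): TMM, filterByExpr, robust quasi-likelihood, Benjamini-Hochberg over all genes, threshold 0.05. The SE is the absolute log2 fold change over the root of F. Input at 24 hours was a contrast within all 13 deep input libraries. CPM were TMM-scaled within each assay. Alternatives were DESeq2 1.42.0, voom (limma 3.58.1), other scalings and filters, library set and mouse as blocks, and leaving out libraries. Scripts were tested on simulated counts.

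Named members were, per comparison, the 4 with the smallest P where fewer than 4 passed (1 for each interaction), the 5 highest in PBS m6A IP libraries and 18 fixed ones. Members named for non-overlap, by alternative tools or in library sets were chosen after their values were seen. Mouse numbers pair m6A IP and input libraries because both come from 1 animal. In 12 mice with both, deviations from group means correlated between -0.14 and 0.89, above 0.1 in 10. Gene positions came from RefSeq (GRCm38.p6), and all 81 members matched. Some members, which the counts include, are not reported by name here.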

Additional observations from a re-analysis of the deposited data

Results flagged for a closer look

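In groups of 4 to 6 libraries, 10 of 132 groups of named members (28 of 324 over all members) held a library whose gap to its nearest neighbour exceeded Dixon's 95% critical value. Chance flags about 1 group in 20. In m6A IP at 24 hours IAKA mouse 8 was the highest for Kcnj2 (199.998 CPM), Kcnj15 (47.2 CPM) and Kcnmb1 (54.3 CPM), as its input library was, and IAKA mouse 67, a library of 1979606 counts, was the highest for Kcnab1 (58.1 CPM, others 29.8 to 37.4 CPM). In m6A IP at 2 weeks IAKA mouse 42 was the highest for Kcnj10 (220 CPM, others 44.1 to 106 CPM), IAKA mouse 6 for Kcnip4 (54.2 CPM, others 16.1 to 29.9 CPM) and PBS mouse 4 for Kcnq3 (346 CPM, others 206 to 238 CPM). In input at 2 weeks IAKA mouse 21 was the highest for Kcne2 (20.1 CPM, others 1.70 to 7.73 CPM) and Kcnj3 (194 CPM, others 132 to 153 CPM). In the same group IAKA mouse 42 was the lowest for Kcnj13 (2.87 CPM, others 3.55 to 3.86 CPM). Of the 9 flags over all members in m6A IP at 24 hours 6 fell on IAKA mouse 8, and all 5 in m6A IP of PBS mice at 2 weeks fell on PBS mouse 4, a library of 6579414 counts.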

How the results depend on the processing

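In each of 7 comparisons 0 members were called in edgeR with the settings reported (for m6A IP over input a call also needed an absolute log2 ratio above 1), and 130 of 138 counts under alternatives were also 0. Voom called 11 members in m6A IP at 24 hours, 7 in input at 24 hours, 3 in input at 2 weeks and 1 (Kcnj15) for m6A IP over input in PBS mice. DESeq2 called 2 in input at 24 hours and 3 in input at 2 weeks, library size alone called 1 (Kcna4) for m6A IP over input, and set 4 alone called 3 in m6A IP at 24 hours (chosen after seeing the data). Leaving out 1 library gave from 0 to 0 members called in each comparison. The fit of input at 24 hours without PBS mouse 1 was not possible. With the mouse as a replicate block, 0 members were called both for m6A IP over input and for its change by IAKA, and of the values named it changed only the call of Kcnk1. Of 385 values under alternatives of 20 single-member results, which are those the naming rule gave and leave out other members such as Kcnk13 in m6A IP at 2 weeks (-0.19 over all libraries, 0.87 within set 5), 358 kept their direction and side of the threshold, 18 were newly past it, 9 were no longer past it and 0 changed direction. Over all genes, voom called 1120 and DESeq2 156 against 1 in m6A IP at 24 hours, 1076 and 197 against 0 in input at 24 hours, and 342 and 116 against 0 in input at 2 weeks. Over all genes m6A IP over input in PBS mice called 175, but 473 by voom, 322 by DESeq2, 331 by library size and 79 to 287 when 1 library was left out. Depth limits IAKA mice 67 and 98 in m6A IP, at 1979606 and 1652933 counts, and the 24-hour input comparison, which has 1 control.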
